A study of Mus musculus with 16 samples.

Results

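Histone H3 tails are methylated by writer enzymes, demethylated by erasers and bound by readers, and the genes that encode these proteins are themselves packed in methylated chromatin. The 45 genes described here are such writers, erasers and readers. They were listed by name for their role, with earlier results of these data known and with no measured value in the rule, and are 45 of the 22367 protein-coding genes of the annotation. They comprise subunits of the H3K4 methyltransferase complexes, demethylases of H3K4, H3K36, H3K9 and H3K27, the core of the Polycomb complexes PRC2 and PRC1, the Polycomb CBX readers, the HP1 readers, and the H3K9 methyltransferases with their partner Trim28.

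H3K4me3 is the mark of active promoters, and is written by SET1 and MLL complexes that share the subunits Wdr5, Rbbp5, Ash2l and Dpy30. H3K27me3 is written by PRC2 and bound by the CBX subunit of PRC1, and both complexes keep developmental genes silent. H3K9me3 is written by the SUV39 and SETDB enzymes and bound by HP1 proteins in heterochromatin. In the hair follicle, bulge stem cells (HFSCs) alternate between phases of division and of quiescence.

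The study asked how these 3 marks differ between dividing and quiescent HFSCs and between HFSCs and neighbouring cells. CD34+/α6-integrin+ cells were sorted from the skin of wild-type CD1 x FVB mice in early anagen (PD22 to PD25, EA-HFSCs) and in late catagen (PD38 to PD44, LC-HFSCs). The CD34-/α6-integrin+ cells of the same stages (nEA-HFSCs and nLC-HFSCs) are described in the study as mostly epidermal and lower outer root sheath cells. Nuclei of pooled mice, given as male in the labels, were digested with micrococcal nuclease and immunoprecipitated for H3K4me3 (ActiveMotif antibody), H3K27me3 (Millipore) or H3K9me3. For H3K9me3 the study's methods give a Millipore or an Abcam antibody, without naming which sample had which. Each of the 4 populations gave 1 peak list per mark. A peak is a stretch of the genome with more reads than the IgG control of the same population, and its score is 10 times the negative log10 of its p-value. A mark was assigned to a gene if a peak of it reached within 3000 bp of 1 or more annotated transcript starts. With 1 list per population and mark there were no replicates, and no test between populations was possible. Shares carry 95% Wilson intervals that cover counting error only.

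The lists held 14718 to 24498 peaks for H3K4me3, 1909 to 25534 for H3K27me3 and 1414 to 42277 for H3K9me3, and the shortest list of each mark was that of LC-HFSCs. The lists give no read numbers. The study's methods describe only H3K4me3 as near saturation and state that more reads were used for LC-HFSCs than for EA-HFSCs. Of 19 cell type markers, 15 had H3K4me3 in each HFSC list, 14 in nEA-HFSCs and 13 in nLC-HFSCs. Cd34, the sorting marker of the bulge, had H3K4me3 in EA-HFSCs (score 3100) and LC-HFSCs (1734.66) and none in the CD34- populations, which instead had H3K27me3 there (271.17 and 119.66). The other 6 bulge markers (Krt15, Sox9, Lhx2, Tcf7l1, Nfatc1 and Lgr5) had H3K4me3 in all 4 lists. In both CD34- lists Krt15, Sox9 and Nfatc1 scored 3100, and Lhx2, Tcf7l1 and Lgr5 scored 123.01 to 1197.79. The leukocyte genes Ptprc and Cd3e and the endothelial genes Pecam1 and Cdh5 had no H3K4me3 in any list. The fibroblast genes Col1a1 and Pdgfra and the melanocyte gene Mitf had H3K4me3 in all 4 lists, and the melanocyte gene Dct in all but nLC-HFSCs (scores 73.44 to 97.26). Whether other cells in the sorts contributed to the peaks below was not tested.

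The promoters of the genes were mostly rich in CG dinucleotides. In the 300 bases from 250 upstream to 50 downstream of the main start, which is the start where most annotated transcripts begin, the median number of CG dinucleotides was 24 (range 1 to 45). It was 12 over 22362 protein-coding genes and 20 over those with H3K4me3 in EA-HFSCs. The 7 windows printed here belong to the 4 genes that carried H3K27me3 (Phc1, Bmi1, Cbx8 and Cbx6), to Ezh2, the catalytic subunit of PRC2, and to the paralogous H3K9 methyltransferases Suv39h1 and Suv39h2, which differed in H3K9me3. They are read 5′ to 3′ on the gene's strand from mm9, with CG dinucleotides in capitals. The windows are chr6:122289677-122289976 (minus strand) for Phc1, chr2:18601749-18602048 (plus) for Bmi1, chr11:118902176-118902475 (minus) for Cbx8, chr15:79664706-79665005 (minus) for Cbx6, chr6:47544980-47545279 (minus) for Ezh2, chrX:7651837-7652136 (minus) for Suv39h1 and chr2:3392254-3392553 (minus) for Suv39h2.
Phc1: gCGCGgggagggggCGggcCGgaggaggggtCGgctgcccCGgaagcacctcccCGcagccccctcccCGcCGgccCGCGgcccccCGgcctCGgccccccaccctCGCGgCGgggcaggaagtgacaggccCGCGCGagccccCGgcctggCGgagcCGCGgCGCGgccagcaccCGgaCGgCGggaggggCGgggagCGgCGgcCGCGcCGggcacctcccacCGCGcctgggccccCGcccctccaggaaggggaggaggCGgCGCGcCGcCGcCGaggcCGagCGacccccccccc
Bmi1: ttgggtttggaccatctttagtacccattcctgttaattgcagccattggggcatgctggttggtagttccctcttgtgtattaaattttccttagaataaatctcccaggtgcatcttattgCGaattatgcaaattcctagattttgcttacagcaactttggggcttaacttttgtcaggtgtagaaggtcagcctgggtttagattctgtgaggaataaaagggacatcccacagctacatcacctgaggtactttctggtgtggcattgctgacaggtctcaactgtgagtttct
Cbx8: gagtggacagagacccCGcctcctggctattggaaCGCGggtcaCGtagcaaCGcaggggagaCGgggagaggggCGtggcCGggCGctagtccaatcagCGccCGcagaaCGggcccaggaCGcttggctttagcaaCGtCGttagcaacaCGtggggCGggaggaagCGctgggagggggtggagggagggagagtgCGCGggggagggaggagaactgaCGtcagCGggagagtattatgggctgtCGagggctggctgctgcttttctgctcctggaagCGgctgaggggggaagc
Cbx6: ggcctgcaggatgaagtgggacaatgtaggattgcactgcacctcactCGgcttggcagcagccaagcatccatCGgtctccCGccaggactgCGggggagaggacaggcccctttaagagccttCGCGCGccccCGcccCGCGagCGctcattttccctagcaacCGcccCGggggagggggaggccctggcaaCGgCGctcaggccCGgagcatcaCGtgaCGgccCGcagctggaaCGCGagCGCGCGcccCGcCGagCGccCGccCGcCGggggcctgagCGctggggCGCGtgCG
Ezh2: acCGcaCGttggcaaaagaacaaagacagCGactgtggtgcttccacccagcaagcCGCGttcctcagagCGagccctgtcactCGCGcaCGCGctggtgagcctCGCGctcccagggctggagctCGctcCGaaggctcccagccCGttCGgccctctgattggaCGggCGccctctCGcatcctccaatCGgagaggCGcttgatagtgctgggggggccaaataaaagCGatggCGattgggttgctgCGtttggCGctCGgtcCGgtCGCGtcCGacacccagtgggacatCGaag
Suv39h1: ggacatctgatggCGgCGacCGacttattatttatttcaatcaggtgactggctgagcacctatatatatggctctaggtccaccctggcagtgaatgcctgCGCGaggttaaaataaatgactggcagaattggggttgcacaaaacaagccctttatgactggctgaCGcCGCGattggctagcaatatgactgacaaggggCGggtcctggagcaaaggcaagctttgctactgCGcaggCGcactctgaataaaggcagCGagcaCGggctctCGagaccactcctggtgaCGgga
Suv39h2: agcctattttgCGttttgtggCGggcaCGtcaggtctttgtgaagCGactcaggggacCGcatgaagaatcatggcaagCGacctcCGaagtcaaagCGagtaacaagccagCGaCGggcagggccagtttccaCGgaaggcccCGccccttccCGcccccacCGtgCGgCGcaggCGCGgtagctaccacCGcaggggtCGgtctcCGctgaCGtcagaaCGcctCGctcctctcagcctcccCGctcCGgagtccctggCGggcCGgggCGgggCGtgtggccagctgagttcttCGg
Phc1 had 45 CG dinucleotides, the most of the 45 genes, and Bmi1 had 1. The main start of Bmi1 lies 3354 bp downstream of the first annotated start of the gene, and its strongest H3K4me3 peaks lay upstream of this window. Dpy30 and Kdm4c also had 1 CG dinucleotide at their main starts, and these were the only main starts of the 45 without H3K4me3 in EA-HFSCs. The GC box GGGCGG, read on both strands, was present in 29 windows (64.4%), against 44.9% of all genes and 64.5% of those with H3K4me3 in EA-HFSCs. Against the same sets, CCAAT was present in 19 (42.2%, against 37.8% and 37.6%), the ETS-type letters CCGGAAG in 4 (8.89%, against 11.3% and 16.6%), and TATAAA in none (against 13.3% of all genes and 6.93% of those with H3K4me3). None of these motifs contains another, and a match describes the letters only.

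All 45 genes carried H3K4me3 in all 4 populations. The share was 100% (interval 92.1 to 100) in each list, beside 62.4% of all protein-coding genes in EA-HFSCs, 55.9% in LC-HFSCs, 61.7% in nEA-HFSCs and 58.8% in nLC-HFSCs. None of the 45 lost the mark between early anagen and late catagen, while 10.7% of marked genes lost it in HFSCs and 5.39% in the CD34- cells.

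**Figure D1:**
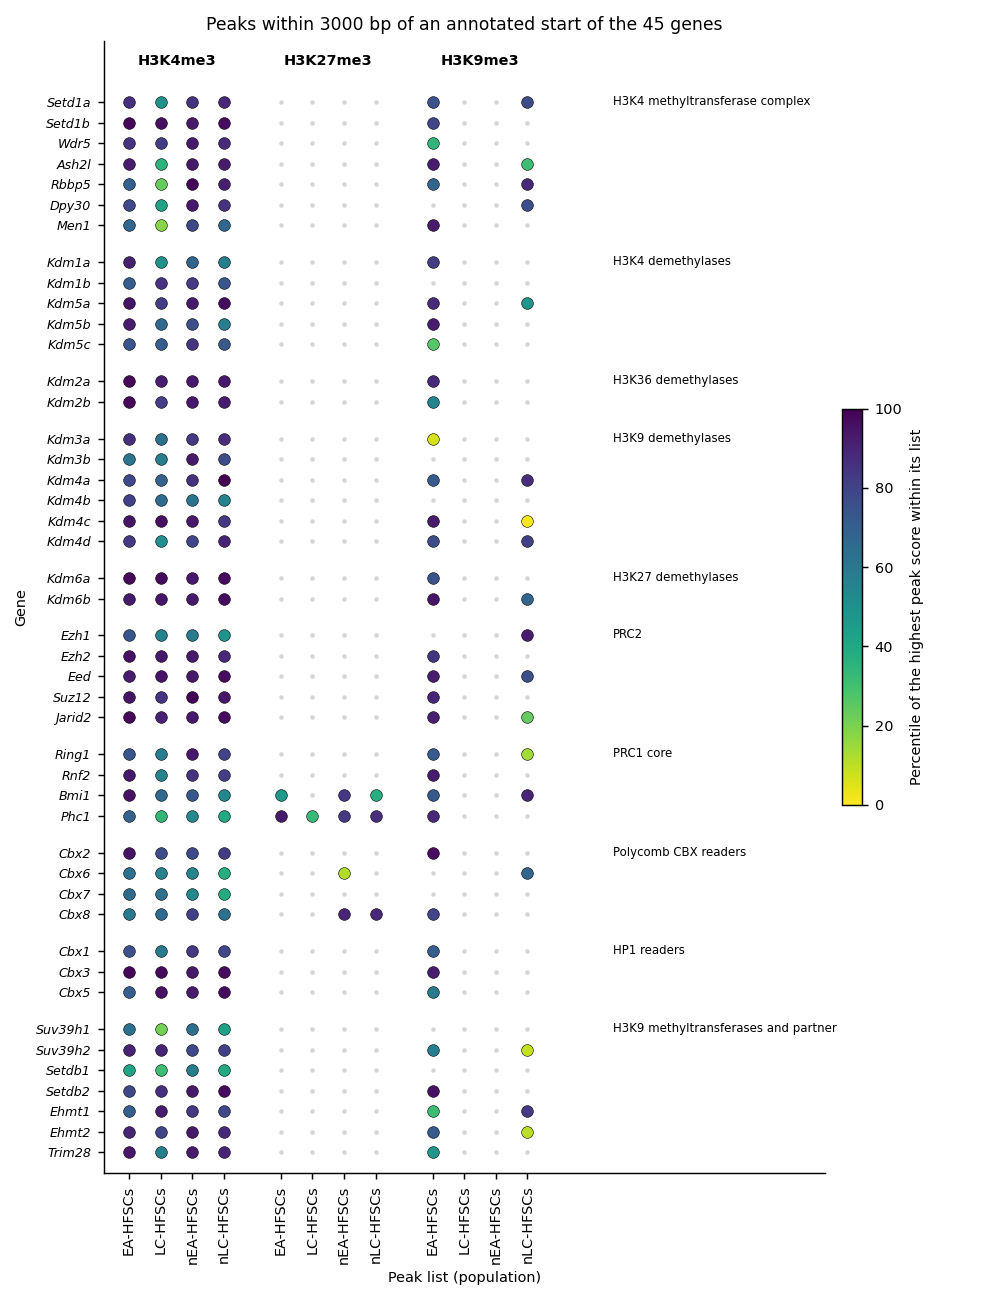
Each row is 1 of the 45 genes, grouped by role, and each column is 1 of the 12 peak lists. A filled circle is a peak within 3000 bp of an annotated start, coloured by the percentile of its highest score within that list, and a small grey dot is no peak. The H3K4me3 columns are full, H3K27me3 is seen at 4 genes, and H3K9me3 is seen at 36 genes in EA-HFSCs, at 18 in nLC-HFSCs and at none in the other lists.

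The H3K4me3 peaks were longer at these genes than at the typical marked gene. The summed length of the peaks within 3000 bp of a start had a median of 3964 bp in EA-HFSCs (range 2497 to 20713), beside 3265 bp over all marked genes. The medians were 3225 and 2679 bp in LC-HFSCs, 3360 and 2753 bp in nEA-HFSCs, and 2922 and 2445 bp in nLC-HFSCs. The sum grows with the number of starts, and the genes had a median of 5 distinct starts, against 3 over the genes with H3K4me3. In 11 genes the highest H3K4me3 peak of EA-HFSCs also covered the start of another gene, so that part of its length may belong to the neighbour.

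Kdm2b, an H3K36 demethylase that also recruits a PRC1 complex to unmethylated CpG islands, had the longest sum. It has 22 annotated starts, and 5 separate peaks, 1 of them over the start of Orai1, summed to 20713 bp in EA-HFSCs, with sums of 13109 bp in LC-HFSCs (4 peaks), 14715 bp in nEA-HFSCs and 12713 bp in nLC-HFSCs. The longest single peaks were those of Setd1b, a catalytic H3K4 methyltransferase, and Kdm6b, an H3K27 demethylase. The Setd1b peak spanned 14349 bp in EA-HFSCs (where it also covered the start of Rhof), 11082 bp in LC-HFSCs, 11147 bp in nEA-HFSCs and 10975 bp in nLC-HFSCs, with width percentiles of 99.8 to 99.9 within the lists. The Kdm6b region was 1 peak of 14148 bp in EA-HFSCs and was broken into 2 peaks in LC-HFSCs and nEA-HFSCs and into 3 in nLC-HFSCs, with sums of 12907, 11764 and 10598 bp. Ring1, the E3 ligase subunit of PRC1, followed with 12074 bp, in a peak that also covered the starts of H2-Ke6, Rxrb and Slc39a7. Cbx8, a Polycomb reader, had 9233 bp.

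The shortest sums in EA-HFSCs were those of the Polycomb reader Cbx7 (2497 bp), the H3K9 demethylase Kdm4d (2516 bp), the H3K9 methyltransferases Setdb1 (2591 bp) and Suv39h2 (2880 bp), and the H3K4 demethylase Kdm1a (3018 bp). The Kdm4d peak also covered the start of Cwc15, and the parts of both genes in it cannot be told apart.

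H3K4me3 was shorter in late catagen at nearly every one of these genes, and by about as much as elsewhere. The ratio of the LC-HFSC to the EA-HFSC length had a median of 0.801 (range 0.436 to 1.05) and was below 1 in 44 of 45, beside a median of 0.814 and 90.4% below 1 over the 12473 genes marked in both. In the CD34- cells the median ratio was 0.872 (range 0.412 to 1.09), with 40 of 45 below 1, beside 0.88 and 81.6%. The lowest ratios in HFSCs were at Ring1 (0.436), the KRAB corepressor Trim28 (0.495), Kdm2b (0.633), Men1 (0.639), the menin subunit of MLL complexes, and the PRC1 subunit Bmi1 (0.653). At Ring1 the long EA-HFSC peak contracted from 12074 to 5268 bp and no longer covered the starts of Rxrb and Slc39a7, while nEA-HFSCs already had 5086 bp and nLC-HFSCs 4116 bp. Of the 45, Cbx7 alone was longer in LC-HFSCs, at 2615 against 2497 bp.

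**Figure D2:**
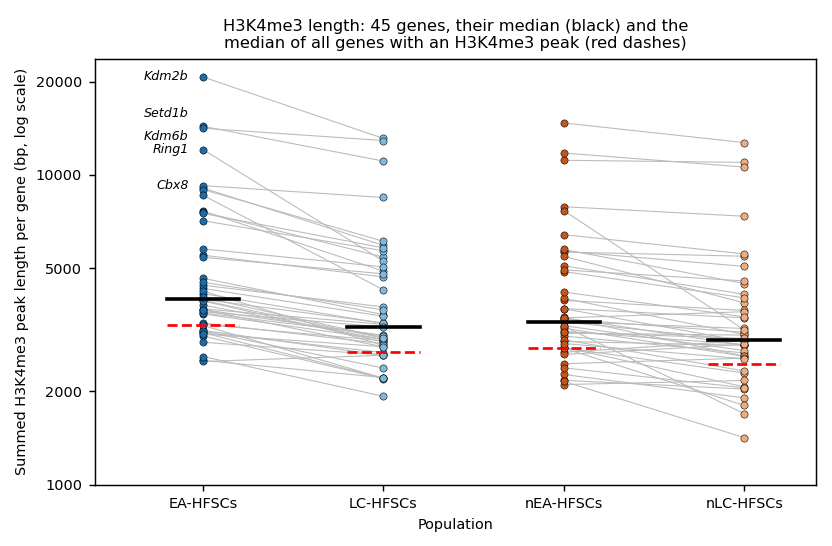
Summed length of H3K4me3 peaks within 3000 bp of a start of each of the 45 genes (points, log scale), by population, with grey lines joining the same gene at the 2 stages. Black bars are the medians of the 45 (3964, 3225, 3360 and 2922 bp), red dashes those of all genes with the mark (3265, 2679, 2753 and 2445 bp), and the 5 genes with the longest sums in EA-HFSCs are named.

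Scores were compared as ranks, since a score depends on the depth of its list. Among the 12281 genes with H3K4me3 in all 4 lists, a ranking added after the data had been seen, the median percentile of the 45 was 71.1 in EA-HFSCs, 54.9 in LC-HFSCs, 66.6 in nEA-HFSCs and 71.8 in nLC-HFSCs. Within the full lists the medians were 86, 66.6, 86.3 and 85.6, beside 71.5, 61.9, 75.7 and 70.4 over all marked genes. From EA-HFSCs to LC-HFSCs 27 genes moved down in rank and 18 up, beside 48.2% of all ranked genes that moved down, and in the CD34- cells 22 moved down and 23 up, beside 48%. A score of 3100 is shared by many of the 12281 genes, which then share a rank within their list. It was held by 675 in EA-HFSCs (6 of the 45), 3370 in nEA-HFSCs (20), 1165 in nLC-HFSCs (9) and none in LC-HFSCs. The 9 genes in nLC-HFSCs also scored 3100 in nEA-HFSCs, so their score did not change. Their percentile still went from 83.7 to 93.9, as fewer genes shared the score in nLC-HFSCs. These 9 are among the 23 that moved up.

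Several subunits of the H3K4 methyltransferase complexes stood lower in the ranks of quiescent HFSCs. Ash2l was at percentiles 83.9 and 20.4 in EA-HFSCs and LC-HFSCs, and at 83.7 and 84.9 in the CD34- cells of the same stages. Setd1a, a catalytic subunit, was at 72.5 and 34.4 in HFSCs and at 64.5 and 76.8 in the CD34- cells. At the 2 stages of HFSCs, Rbbp5 was at 40.2 and 9.99, Dpy30 at 55.7 and 27.2, and Men1 at 35.9 and 6.48. These 3 were also lower at the later stage of the CD34- cells, where Rbbp5 was at 97.9 and 83.3, Dpy30 at 83.7 and 71.8, and Men1 at 50.6 and 41.4. The LC-HFSC rank of Men1 is that of a peak over the start of Map4k2 (score 92.57), and the peak at its own starts scored 87.75. The 5 of the 7 genes of the group named here shifted in HFSCs by -63.5 to -28.5 percentile points. They were chosen after their values were seen, so this range cannot be set against that of all genes. Genes of other groups shifted by as much, among them Kdm1a (-47.2), Rnf2 (-45.6), Trim28 (-43.8) and Bmi1 (-36.3). The Bmi1 ranks at both HFSC stages are those of a peak over starts of Commd3 that covered no start of Bmi1. Setd1b (96.3 and 94.2) and Wdr5 (69 and 75.2) moved little.

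Some genes ranked higher in LC-HFSCs. Cbx5, the HP1α reader, was at percentiles 41.2 and 94.3 at the 2 HFSC stages, but its highest peak also covered the start of Hnrnpa1. At its main start alone the Cbx5 peak scored 270.87, 133.77, 489.78 and 165.59 in EA-HFSCs, LC-HFSCs, nEA-HFSCs and nLC-HFSCs. Ehmt1, an H3K9 methyltransferase, was at 42 and 89.4. Of the enzymes fixed by name, Ezh2 was at 91.6 and 91.2, Suv39h2 was at 80.2 and 86.4, Suv39h1 at 28.1 and 8.58, and the H3K4 demethylase Kdm5a at 90 and 74.5.

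The genes had 281 distinct annotated starts, of which 207 lay within 3000 bp of H3K4me3 in EA-HFSCs, 200 in LC-HFSCs, 206 in nEA-HFSCs and 204 in nLC-HFSCs. In EA-HFSCs every start was marked in 19 genes, and 26 genes had marked and unmarked starts. Ezh2 had 2 marked starts of 9 in each of the 4 lists, Ehmt1 6 of 13 and Ehmt2, its partner in H3K9 methylation, 5 of 14, with no difference between lists. The number differed between lists at 3 genes. Kdm2b had 18 of 22 starts marked in EA-HFSCs and nEA-HFSCs, 15 in LC-HFSCs and 17 in nLC-HFSCs, Jarid2 had all 17 marked except in LC-HFSCs (14), and Trim28 had 9, 8, 8 and 7 of 9 in EA-HFSCs, LC-HFSCs, nEA-HFSCs and nLC-HFSCs. The first annotated start was not marked in EA-HFSCs in 4 genes, where the highest peak lay at a start 6932 bp (Ash2l), 7550 bp (Dpy30), 9439 bp (Kdm4c) and 38467 bp (Cbx7) away.

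Few of these genes carried H3K27me3 in any population. It was found at 2 of 45 in EA-HFSCs (4.44%, interval 1.23 to 14.8, beside 14.0% of all genes), 1 in LC-HFSCs (2.22%, 0.393 to 11.6, beside 3.73%), 4 in nEA-HFSCs (8.89%, 3.51 to 20.7, beside 16.8%) and 3 in nLC-HFSCs (6.67%, 2.29 to 17.9, beside 12.9%). In each population the share of all genes lay within the interval of the 45. Over the genes with H3K4me3 the shares were 14.2%, 2.33%, 17.5% and 11.2%. The 4 genes that carried it at least once all encode Polycomb proteins, the PRC1 subunits Phc1 and Bmi1 and the readers Cbx8 and Cbx6. No gene of the methyltransferase, demethylase, PRC2 or HP1 groups had H3K27me3 near a start in any list.

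**Figure D3:**
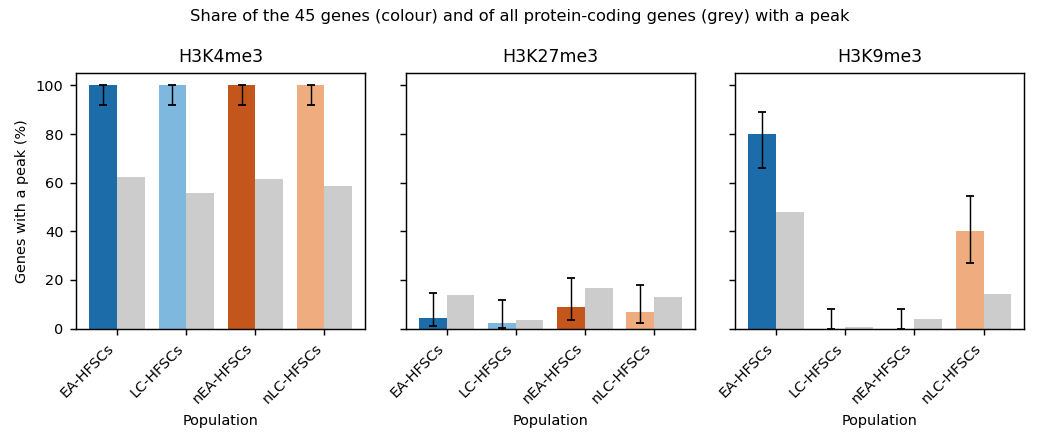
Share of the 45 genes (coloured bars, with 95% Wilson intervals) and of all 22367 protein-coding genes (grey bars) with a peak within 3000 bp of a start, for each mark and population. The coloured bars stand at 100% for H3K4me3 throughout, below the grey bars for H3K27me3, and at 80% in EA-HFSCs and 40% in nLC-HFSCs for H3K9me3, where the grey bars reach 47.9% and 14.1%.

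Between EA-HFSCs and LC-HFSCs 1 of the 2 genes lost the mark (Bmi1), beside 73.9% of all genes with it, and between nEA-HFSCs and nLC-HFSCs 1 of 4 lost it (Cbx6), beside 28.8%. These numbers are too small to set against the shares over all genes.

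Phc1, a PRC1 subunit that polymerizes through its SAM domain, was the only one of the 45 with H3K27me3 in all 4 lists. Positions here are relative to its main start, with negative values upstream. In EA-HFSCs the peak lay upstream (-5647 to -2291, score 453.49) and was followed farther upstream by peaks of 70.98 and 428.6, none of which touched the H3K4me3 peak at the start. In LC-HFSCs no H3K27me3 peak lay upstream within 12000 bp, and a weak peak lay inside the gene (281 to 2969, score 51.82). The EA-HFSC and LC-HFSC peaks therefore did not overlap, whereas 98.8% of the 819 genes with H3K27me3 in both HFSC lists had overlapping peaks. Both CD34- populations carried the mark on both sides, with 262.48 downstream and 178.09 upstream in nEA-HFSCs, and 42.32 and 48.24 downstream and 277.53 upstream in nLC-HFSCs. The H3K4me3 of Phc1 was 1 peak of 3128 bp in EA-HFSCs and was split in 2 in each of the other lists.

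Bmi1, the PCGF subunit that pairs with the RING ligase of PRC1, had H3K27me3 near its starts in EA-HFSCs (score 64.85, -2748 to -1546), nEA-HFSCs (279.69, -2752 to 560) and nLC-HFSCs (50.31 and 57.73), and none in LC-HFSCs. The peaks of EA-HFSCs and nEA-HFSCs and the weaker one of nLC-HFSCs lay on H3K4me3, and the other nLC-HFSC peak, at the main start, did not. Around the 3' end of the gene and beyond it, EA-HFSCs had a strong H3K27me3 peak (score 2447.59, 6489 to 14228 from the main start), as had nEA-HFSCs (1359.29) and nLC-HFSCs (1128.92), and in LC-HFSCs it was short and weak (60.3). The H3K4me3 assigned to Bmi1 included a peak over the starts of Commd3, the gene just upstream, in every list but that of nLC-HFSCs.

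Cbx8 lies on chromosome 11, with the main start of Cbx2 17949 bp away. Within 3000 bp of its starts Cbx8 had H3K27me3 only in the CD34- populations, with scores of 340.8 and 420.44 in nEA-HFSCs and 214.14 and 340.68 in nLC-HFSCs. The higher nEA-HFSC peak was 25930 bp long and began 264 bp upstream of the main start (-26193 to -264). EA-HFSCs had an H3K27me3 peak farther upstream (-11308 to -5746, score 436.36), outside the window, and the nearest in LC-HFSCs lay 127 kb away. The H3K4me3 of Cbx8 extended in EA-HFSCs over this upstream stretch as 1 peak of 9233 bp (-7932 to 1300), of which H3K27me3 covered 2187 bp in the same population, 0 bp in LC-HFSCs, 7669 bp in nEA-HFSCs and 7417 bp in nLC-HFSCs. The stretch carried in LC-HFSCs 2 H3K4me3 peaks of 3366 and 5087 bp, and in the CD34- cells the peak at the start was 3452 and 2919 bp long. Shorter H3K4me3 peaks also lay over the stretch there, of 873, 1492 and 995 bp in nEA-HFSCs and of 696 and 1389 bp in nLC-HFSCs.

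Cbx6 had H3K27me3 only in nEA-HFSCs, as 1 weak upstream peak (-3885 to -1916, score 45.05) near the lowest score of 40 in that list. Of the other Polycomb readers, Cbx2 and Cbx7 had none in any list.

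**Figure D4:**
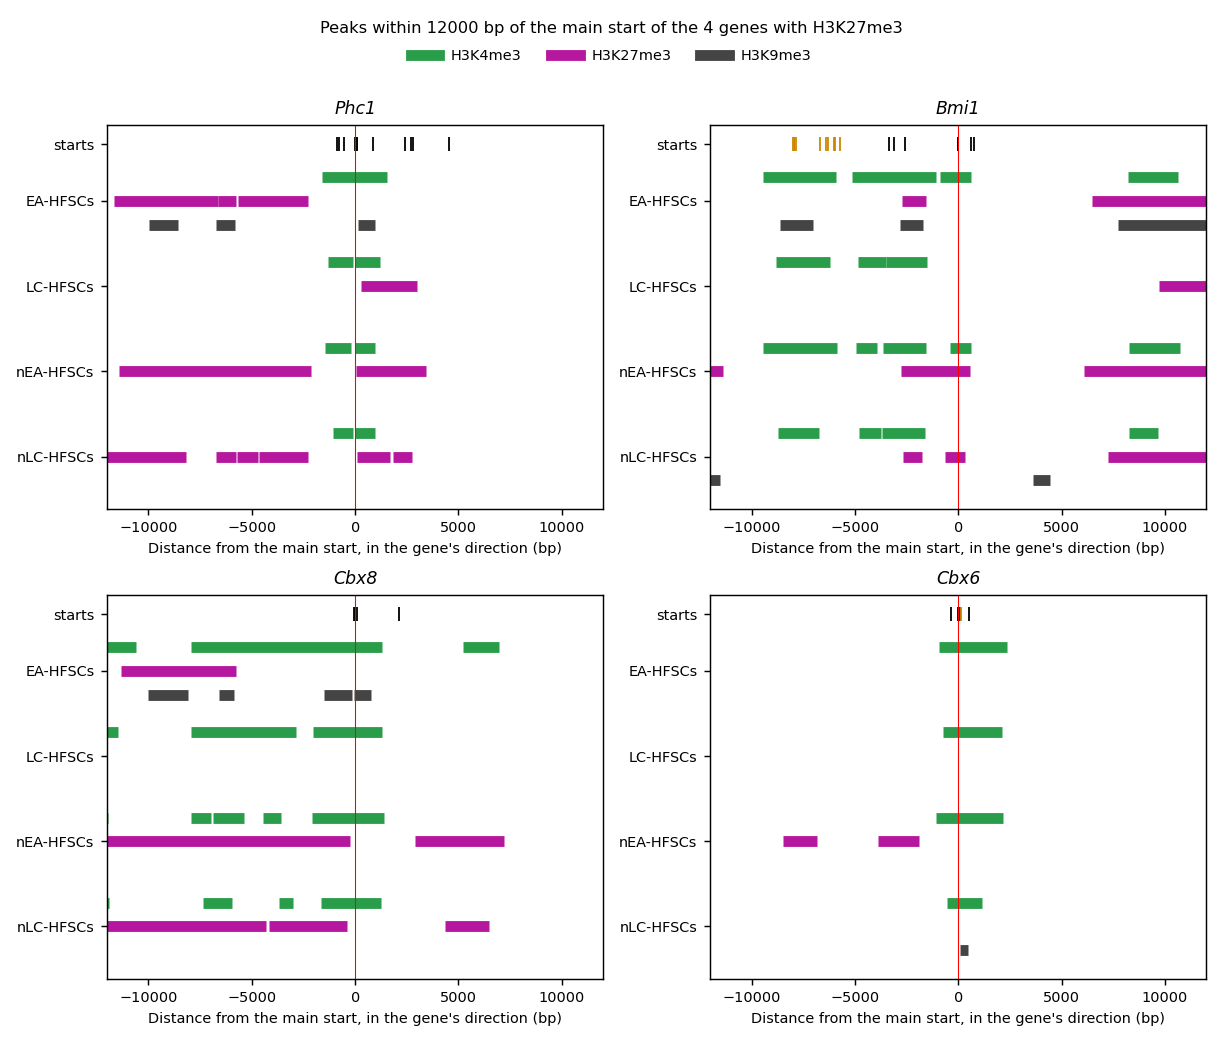
Peaks of the 3 marks within 12000 bp of the main start of Phc1, Bmi1, Cbx8 and Cbx6 in the 4 populations. The red line is the main start, positions run in the direction of the gene, black ticks are starts of the gene and orange ticks those of neighbours. At Phc1 the LC-HFSC H3K27me3 lies downstream of the start and the EA-HFSC H3K27me3 upstream, and at Cbx8 the long EA-HFSC H3K4me3 peak and the nEA-HFSC H3K27me3 peak cover the same stretch.

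H3K9me3 was common at these genes in EA-HFSCs and absent in LC-HFSCs. It was found at 36 of 45 in EA-HFSCs (80%, interval 66.2 to 89.1, beside 47.9% of all genes), 0 in LC-HFSCs (0%, up to 7.87, beside 0.505%), 0 in nEA-HFSCs (beside 4.14%) and 18 in nLC-HFSCs (40%, 27 to 54.5, beside 14.1%). Over the genes with H3K4me3 the shares were 69.3%, 0.376%, 4.28% and 19.7%. All 36 lost it between EA-HFSCs and LC-HFSCs, beside 99.2% of all genes with the mark, so that the loss was that of nearly every gene. Between nEA-HFSCs and nLC-HFSCs none had a peak to lose, where 55.7% of the marked genes lost theirs, and 18 gained one.

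The lists differed in length. The EA-HFSC list held 42277 H3K9me3 peaks, and that of LC-HFSCs held 1414. The lists of nEA-HFSCs and nLC-HFSCs were close in length, at 17873 and 18236 peaks, and had 0 and 18 of the genes. When each list was cut to its 1414 highest peaks, 1 gene (Cbx2) was marked in EA-HFSCs (beside 3.48% of all genes), 0 in LC-HFSCs, 0 in nEA-HFSCs and 1 (Ezh1) in nLC-HFSCs (1.28%). At a score of 100 or more, 15 remained in EA-HFSCs (16.7%) and 0 in nLC-HFSCs (0.778%).

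H3K9me3 in EA-HFSCs was more frequent at genes with a higher H3K4me3 score. With the marked genes split into 4 groups of equal size by that score, it was 45% in group 1 (the lowest), 62.8% in group 2, 80.8% in group 3 and 88.3% in group 4. Of the 45 genes, 1 was in group 1 (without H3K9me3), 11 in group 2 (6 with it), 11 in group 3 (8 with it) and 22 in group 4 (all 22 with it). In nLC-HFSCs the shares were 12.4%, 12%, 21.6% and 32.9%, and 2 of 6, 1 of 6, 5 of 11 and 10 of 22 of the 45 genes had the mark.

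At all 36 genes the highest EA-HFSC peak of H3K9me3 shared bases with H3K4me3 of that population (84.7% over all genes with H3K9me3), and 31 covered an annotated start of the gene. They had a median width of 1494.5 bp (range 752 to 3799) and a median score of 81.93 (range 41.13 to 201.68), beside medians of 1279 bp and 80.085 over all genes with the mark. Their centres had a median position 122.5 bp downstream of the main start. In nLC-HFSCs the 18 peaks were narrower (median 574 bp, range 299 to 1278) and weaker (median score 58.6, range 40.19 to 84.68), and 15 of them (83.3%) overlapped H3K4me3, beside 58.5% over all genes.

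**Figure D5:**
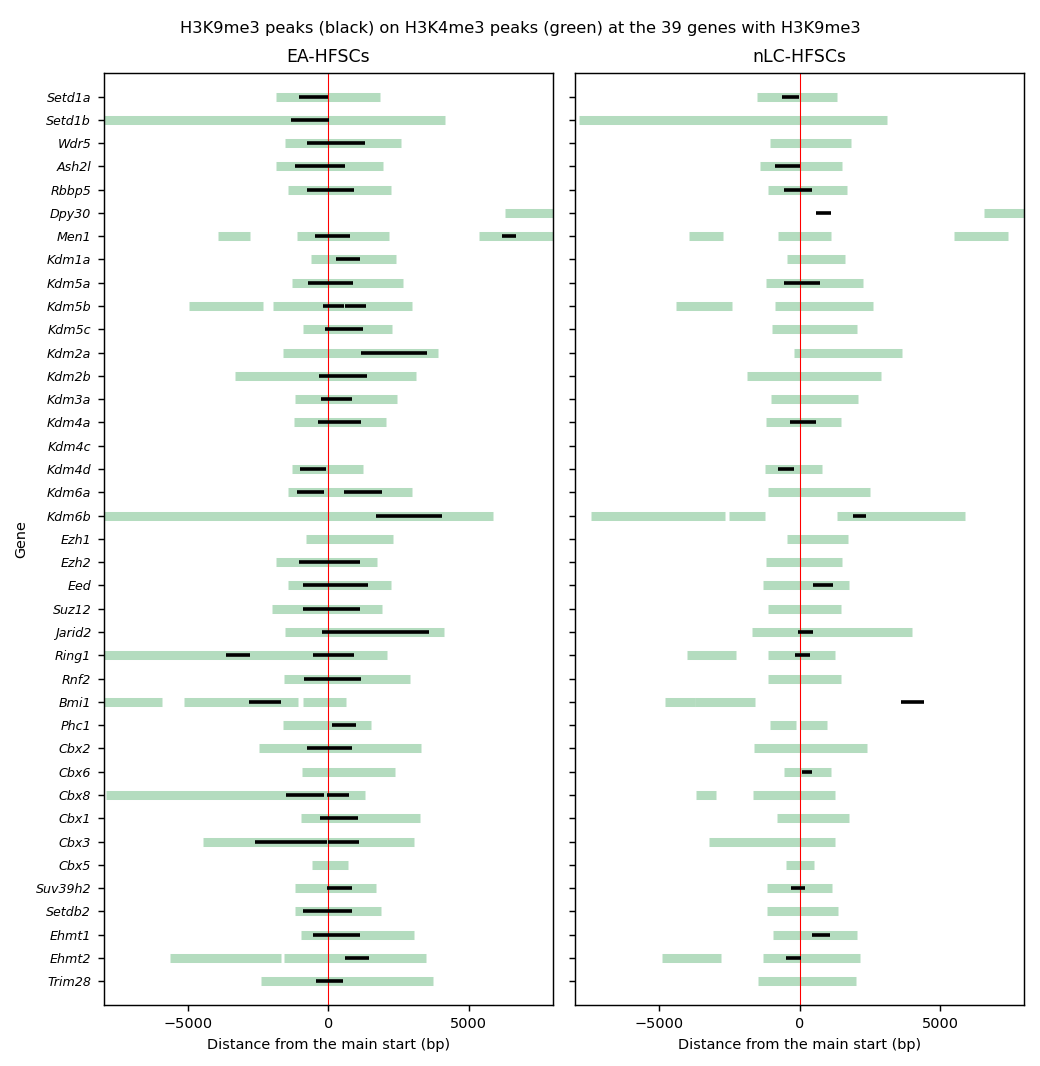
H3K9me3 peaks (black) and H3K4me3 peaks (green) at the 39 genes with H3K9me3 in EA-HFSCs or nLC-HFSCs, by distance from the main start (red line) in the direction of the gene. In EA-HFSCs the black bars shown overlap green ones, and in nLC-HFSCs they are fewer and shorter. The H3K9me3 peaks of Kdm4c, Cbx5 and Ezh1 lie farther from the main start than the axis shows.

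The highest EA-HFSC score was at Cbx2, a Polycomb reader that compacts nucleosomes (201.68), followed by Setdb2, a SET-domain protein of the SETDB family (171.05, in a peak that also covered the start of Cab39l), the H3K27 demethylase Kdm6b (153.34), Men1 (136.98) and the H3K9 demethylase Kdm4c (134.6). The widest peak was that of Jarid2, a PRC2 cofactor (3799 bp, score 124.65). In nLC-HFSCs the highest scores were at Ezh1, the alternative catalytic subunit of PRC2 (84.68), Bmi1 (77.8), Rbbp5 (76.3), the H3K9 demethylase Kdm4a (73.12) and Ehmt1 (66.93). At Ezh1 and Bmi1 these peaks lay off the H3K4me3 peaks, as did that of Dpy30, and the Ezh1 peak was 299 bp wide, 27428 bp downstream of the main start.

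By role, H3K9me3 in EA-HFSCs was found at 6 of the 7 genes of the H3K4 methyltransferase complexes, 4 of 5 H3K4 demethylases, both H3K36 demethylases, 4 of 6 H3K9 demethylases, both H3K27 demethylases, 4 of 5 PRC2 genes, all 4 PRC1 core genes, 2 of 4 Polycomb CBX readers, all 3 HP1 readers and 5 of 7 genes of the H3K9 methyltransferase group. In 6 of these genes (Kdm5a, Kdm2b, Kdm4d, Cbx3, Cbx5 and Setdb2) the highest EA-HFSC H3K9me3 peak also covered the start of another gene. The 5 of 7 in the H3K9 methyltransferase group stood beside 69.3% of the genes with H3K4me3. Suv39h2 (scores 58.75 and 41.2), Ehmt1 (47.36 and 66.93) and Ehmt2 (70.98 and 41.39) had the mark in EA-HFSCs and nLC-HFSCs, Setdb2 and Trim28 (53.47) had it in EA-HFSCs alone, and Suv39h1 and Setdb1 had it in no list. At Suv39h1 H3K4me3 was present throughout, with scores of 983.14, 103.84, 1340.23 and 469.91 in EA-HFSCs, LC-HFSCs, nEA-HFSCs and nLC-HFSCs, and at Suv39h2 it was 2177.45, 554.5, 2298.19 and 1944.35. Ezh2 (93.51), Setd1b (80.85) and Kdm5a (105.17, in a peak that also covered the start of Ccdc77) had H3K9me3 in EA-HFSCs, and Kdm5a also in nLC-HFSCs (49.1).

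The 9 genes without H3K9me3 in EA-HFSCs were Dpy30, the H3K4 demethylase Kdm1b, the H3K9 demethylases Kdm3b and Kdm4b, Ezh1, Cbx6, Cbx7, Suv39h1 and Setdb1. Their promoters held a median of 24 CG dinucleotides, against 23.5 in the 36 with the mark. Across the 4 lists, 21 genes had H3K9me3 in EA-HFSCs only (35.6% of all genes did), 15 in EA-HFSCs and nLC-HFSCs (9.66%), 3 in nLC-HFSCs only (Cbx6, Dpy30 and Ezh1, 2.62%) and 6 in no list (48%). At 13 of the 15 genes with both, the EA-HFSC and nLC-HFSC peaks overlapped, beside 78.7% over all genes with both, and the exceptions were Bmi1 and Ehmt2.

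The nearest LC-HFSC H3K9me3 peak lay 37.8 kb from a start of Setdb2, the median distance over the 45 genes was 1740 kb, and none lay over the body of any of them. In nEA-HFSCs the median distance was 49.7 kb, the nearest peak lay 3.18 kb from Ring1, and peaks lay inside Kdm1a, Kdm1b and Kdm4c away from their starts. In nLC-HFSCs peaks away from the starts lay inside Kdm5b, Kdm3b, Kdm4b and Ezh2.

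The marks assigned to the genes were combined differently in the 4 populations. Marks counted together at a gene need not overlap or share nucleosomes. H3K27me3 of Phc1 in EA-HFSCs and H3K9me3 of Bmi1 in nLC-HFSCs lay off the H3K4me3 peaks. In EA-HFSCs 34 genes had H3K4me3 with H3K9me3, 9 had H3K4me3 alone, and Phc1 and Bmi1 had all 3 marks. In LC-HFSCs 44 had H3K4me3 alone and Phc1 had it with H3K27me3. In nEA-HFSCs 41 had H3K4me3 alone and 4 had it with H3K27me3, and in nLC-HFSCs 25 had H3K4me3 alone, 17 had it with H3K9me3, 2 with H3K27me3, and Bmi1 had all 3. Over all genes, 17.6% had H3K4me3 alone in EA-HFSCs, 54.4% in LC-HFSCs, 49% in nEA-HFSCs and 42.1% in nLC-HFSCs. In the same order, H3K4me3 with H3K9me3 was found at 36%, 0.206%, 1.88% and 10.1% of all genes. H3K4me3 with H3K27me3 was found at 1.65%, 1.3%, 10% and 5.1%, and all 3 marks at 7.24%, 0.00447%, 0.756% and 1.5%.

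A wider list of other genes that act on histone methylation was examined in the same way. Of 70 such genes found in the annotation, 67 had H3K4me3 in each of the 4 lists, and the same 3 lacked it near their starts in all: Smyd1, a methyltransferase of striated muscle, Kdm5d on the Y chromosome, and the H3K36 methyltransferase Ash1l, whose nearest H3K4me3 peak lay 13 to 13.7 kb from its single annotated start. H3K27me3 was found at 5 in EA-HFSCs, 2 in LC-HFSCs, 6 in nEA-HFSCs and 6 in nLC-HFSCs. These shares of 7.14%, 2.86%, 8.57% and 8.57% stood beside 14.0%, 3.73%, 16.8% and 12.9% of all genes. The nEA-HFSC genes included Wiz, a partner of Ehmt1 and Ehmt2, and the nLC-HFSC genes included Smyd1 (77.18). Those in EA-HFSCs included the PR-domain genes Mecom and Prdm16, the chromodomain gene Cdyl2 and the PRC1 gene Pcgf1. Mecom and Prdm16 kept it in LC-HFSCs, with scores of 1664.18 and 292.48 at Mecom and of 3100 and 129.87 at Prdm16, and Pcgf1 had a score of 2788.33 in EA-HFSCs and no LC-HFSC peak.

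H3K9me3 was found at 50 of the 70 in EA-HFSCs (71.4%, beside 80% of the 45 and 47.9% of all genes), 1 in LC-HFSCs (1.43%), 1 in nEA-HFSCs and 18 in nLC-HFSCs (25.7%, beside 40% of the 45 and 14.1% of all genes). Over the genes with H3K4me3 the shares were 69.3% in EA-HFSCs and 19.7% in nLC-HFSCs. The 1 gene marked in LC-HFSCs and nEA-HFSCs was Trim24, a relative of Trim28, with scores of 97.56 in EA-HFSCs, 99.11 in LC-HFSCs, 692.61 in nEA-HFSCs and 112.72 in nLC-HFSCs. Hr, the H3K9 demethylase gene of hairless mice, had H3K9me3 in EA-HFSCs (115.23) and nLC-HFSCs (45) and H3K4me3 in every list.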

How the data were processed

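The authors trimmed single-end reads (Trimmomatic 0.22) and aligned them to mm9 with Bowtie2. Reads of replicate experiments were pooled, and MACS peaks were called with each population's IgG as control. The deposited lists hold peak coordinates with the MACS score (-10 log10 of p), with a lowest value of 50 for H3K4me3 and of 40 for the other marks. No other column of per-sample values was used, and the 4 IgG samples have no list here. Read numbers are not in the lists, and by the study's methods LC-HFSCs had more reads than EA-HFSCs.

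Peaks (219698 in 12 lists, 733 of them on unplaced sequence) were assigned with Python 3.11.15 to the starts of 22367 protein-coding genes of GENCODE vM1 on NCBIM37, which is mm9, and no peak lay past the end of its chromosome. A peak within 3000 bp of any transcript start counted, with an overlap of at least 1 bp. The search was tested on simulated peaks. The main start is the one with the most transcripts beginning within 100 bp. Wilson intervals are at 95%. No p-value is given. Symbols of 72 further genes were looked up and 70 were found, and the values of 1 of them are not reported here.

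The genes and gene lists were chosen with earlier results of these data known. Genes named with values are those with H3K27me3 in any list, the 5 highest H3K9me3 scores in EA-HFSCs and nLC-HFSCs, the 5 longest and 5 shortest H3K4me3 sums, the 5 lowest length ratios, the enzymes whose transcripts the study measured, and genes with marked and unmarked starts. Further genes (among them Setd1a, Cbx5, Jarid2, Trim28 and the H3K4me3 rank changes) were chosen after their values were seen. Alternatives were a 1000 bp window, the gene start alone, scores of at least 50 and 100, and an equal number of the highest peaks for every list of a mark. The rank among genes with H3K4me3 in all 4 lists was added after the data were seen.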

Additional observations from a re-analysis of the deposited data

Results flagged for a closer look

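At 15 genes the presence of H3K9me3 near a start changed in opposite directions in the sorted populations: a peak was present in EA-HFSCs and not in LC-HFSCs, and not in nEA-HFSCs but in nLC-HFSCs. They were Ash2l, Bmi1, Eed, Ehmt1, Ehmt2, Jarid2, Kdm4a, Kdm4c, Kdm4d, Kdm5a, Kdm6b, Rbbp5, Ring1, Setd1a and Suv39h2. At Bmi1 and Ehmt2 the EA-HFSC and nLC-HFSC peaks did not overlap. None of the nLC-HFSC peaks reached a score of 100. There is 1 list per population, so the difference was not tested. Over all genes, 9.66% had H3K9me3 in EA-HFSCs and nLC-HFSCs only.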

How the results depend on the processing

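Of 90 values recomputed for 18 counts, 76 stayed within 1.5 times the reported count. None of the 30 for H3K4me3 moved, 9 of 30 moved for H3K27me3 and 5 of 30 for H3K9me3. No alternative adds peaks or starts, so a count of 0 could not move. This held for H3K9me3 in LC-HFSCs and nEA-HFSCs and for both counts of genes that kept it. A score of at least 50 could not change H3K4me3, whose lists hold no lower score. The number of genes with H3K27me3 in EA-HFSCs went from 2 to 1 with a 1000 bp window, at scores of 100 or more, and when the lists of a mark were cut to equal numbers of their highest peaks (equal lists). In LC-HFSCs it went from 1 to 0 at a score of at least 100, and with equal lists it went to 1 in nEA-HFSCs and to 1 in nLC-HFSCs (Cbx8 in both). The 1 gene that kept H3K27me3 in HFSCs became 0 with the 1000 bp window and at scores of 100 or more, and the 3 that kept it in the CD34- cells became 1 with equal lists. H3K9me3 in EA-HFSCs went from 36 genes to 15 at a score of at least 100 and to 1 with equal lists. In nLC-HFSCs it went from 18 to 11 at a score of at least 50, to 0 at a score of at least 100 and to 1 with equal lists. Each of these settings leaves fewer peaks or a smaller window. The rank of H3K4me3 among genes marked in all 4 lists, chosen after the data were seen, gave median percentiles of 71.1, 54.9, 66.6 and 71.8, each within 1.5 times that of the full list. No paired analysis was possible because there is 1 list per population and mark, and for the same reason no replicate could be left out. H3K27me3 and H3K9me3 were not saturated by the study's account, which limits what can be said of a missing peak of these marks.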
